A study of Bos taurus with 4 samples.

Results

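The genes described here encode enzymes of mitochondrial fatty acid beta-oxidation: the carnitine palmitoyltransferases CPT1A, CPT1B and CPT2, the acyl-CoA dehydrogenases ACADVL, ACADL and ACADM, the trifunctional protein subunits HADHA and HADHB, and the hydroxyacyl-CoA dehydrogenase HADH. Every probe of the bovine embryo array whose gene symbol in the platform table was one of these 9 was taken, which gave 11 of the 43794 probes on the array, for 8 of the 9 genes. No probe carried the symbol HADHA, and that gene is not analysed here. Of the 11 probes, 10 were bright enough to be tested, among 30034 tested in all.

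Transcript levels were measured in 8 pools of expanded blastocysts, 4 of vitrified and 4 of slow-frozen origin (Bos taurus), which had been cryopreserved as compact morulae. All embryos were produced in vitro from abattoir oocytes and frozen-thawed semen, the breed label reads beef, and the labels give 7 embryos per pool (the methods allow fewer). The labels also give a collection time of day 7 after fertilisation, the day on which, by the methods, the morulae were taken for freezing, so the age of the blastocysts themselves is not settled. Vitrified morulae were plunged on a cryotop in ethylene glycol and dimethyl sulfoxide, a route that solidifies without ice, and slow-frozen morulae were cooled at a controlled rate in straws in glycerol, and both were then warmed and cultured. Only embryos that reached the expanded blastocyst were pooled, and no pool of unfrozen embryos is analysed here.

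Fatty acids released from triacylglycerol are joined to coenzyme A, handed to carnitine at the outer mitochondrial membrane, carried inward and shortened in repeated rounds of dehydrogenation, hydration, dehydrogenation and thiolysis. Bovine oocytes and early embryos are rich in lipid droplets and use this route as a source of energy. Their lipid content is a known concern in freezing.

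Markers of the labelled tissue were measured first. All 6 trophectoderm markers (such as CDX2 and GATA3) and all 5 inner cell mass markers (such as NANOG and SOX2) were above the negative control spots in all 8 pools. Of 6 cumulus or granulosa markers 1 was above them in all 8 pools and AMH in none, and of 5 blood markers 3 were. The mean log2 intensity of the trophectoderm markers was 11.5 to 11.81 in vitrified and 11.82 to 11.94 in slow-frozen pools, and that of the 3 measured hypoblast markers was 9.67 to 10.0 and 8.68 to 9.59. Neither overlapped between the groups, the trophectoderm markers being lower and the hypoblast markers higher in vitrified pools, with the wider gap for the hypoblast. The trophectoderm gap was only that between 11.81 and 11.82. The hypoblast mean rests on 3 probes, of which SOX17 was above the controls in 2 pools of each group. Of all tested probes, taken singly, 2.47% did not overlap. The inner cell mass markers overlapped, at 10.4 to 10.6 and 9.67 to 10.5. The part of these lineage markers in the values below was not tested, and in pooled embryos fewer cells of a type and less RNA per cell cannot be told apart. All vitrified pools were hybridised on one slide and all slow-frozen pools on another, so slide and group cannot be told apart either. Median raw intensity ranged from 109 to 384 between pools, and 63.3% to 74.1% of probes were above the negative controls.

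No beta-oxidation probe passed a test for a difference between blastocysts from vitrified and from slow-frozen morulae. In limma's test, adjusted by Benjamini-Hochberg over all tested probes, 0 of 10 passed (adjusted p = 1 for each), against 0.00333% of all tested probes. At the study's own thresholds (at least a 2-fold difference and an unadjusted p under 0.05) 0 of 10 passed, against 0.190% of all probes. Even at an unadjusted p under 0.05 alone the count was 0 of 10 (limma), against 4.81% of all probes, and in 0 of 10 the groups did not overlap, against 2.47%. With 10 probes, a count of 0 does not set them apart from these shares. Differences are given throughout as vitrified minus slow-frozen on the log2 scale, and among the 7 probes above the negative controls in all 8 pools the largest in size was 0.14. For these 7 probes each 95% confidence interval lay within a 2-fold difference, and the end farthest from 0 was that of CPT2, a 1.53-fold lower level in vitrified pools. The other 3, those of CPT1A and CPT1B and 1 of ACADM, had passed the filter through their vitrified pools alone, and their intervals do not limit a difference in transcript level. Of all tested probes, 96.3% had an interval within 2-fold.

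**Figure D1:**
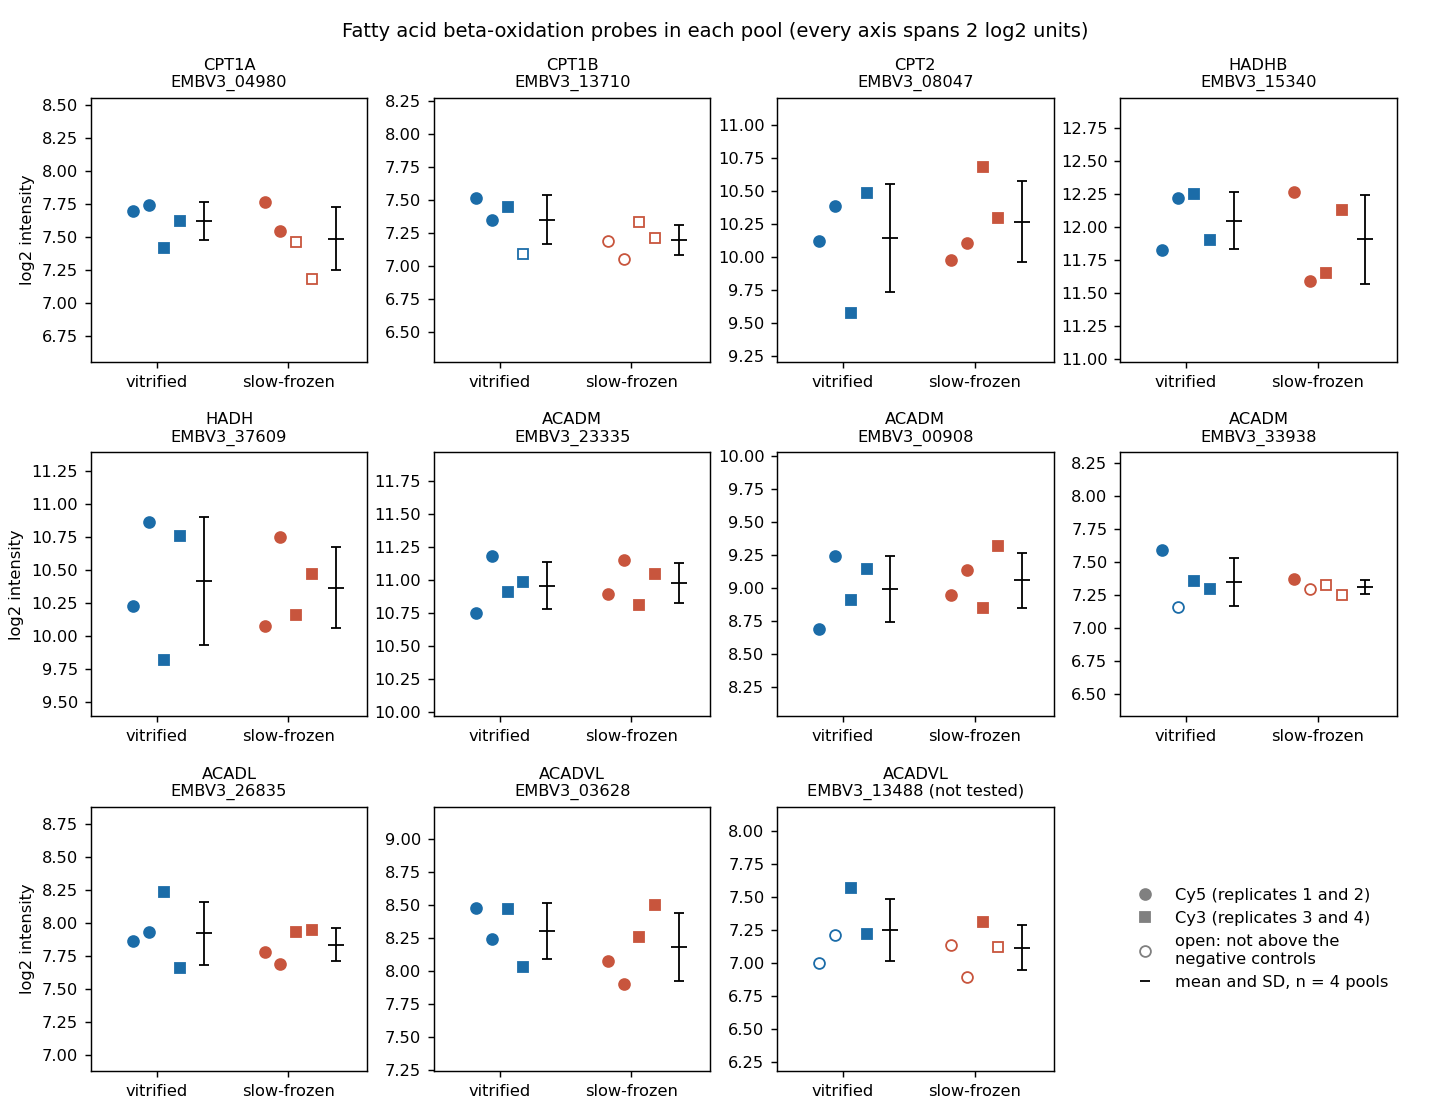
Log2 intensity of the 11 beta-oxidation probes in the 4 vitrified (blue) and 4 slow-frozen (red) pools, with circles for Cy5, squares for Cy3, open symbols for pools not above the negative controls, and the mean and SD (n = 4) in black. The groups overlapped for every probe, and CPT2 and HADH had the widest ranges, 1.11 and 1.04 over the 8 pools.

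The carnitine shuttle opens the pathway. CPT1A, the carnitine palmitoyltransferase of liver and most other tissues, moves long-chain acyl groups onto carnitine and is the step at which entry into the mitochondrion is controlled. Its probe (EMBV3_04980) read 7.70, 7.74, 7.42 and 7.62 in vitrified replicates 1 to 4 and 7.76, 7.54, 7.46 and 7.18 in slow-frozen replicates 1 to 4 (log2 intensity). The highest and the lowest pools were both slow-frozen, and the 2 slow-frozen pools labelled with Cy3 were not above their negative controls. The difference was 0.13 ± 0.14 (SE, n = 4 pools per group, adjusted p = 1, limma), with a 95% interval of -0.17 to 0.44.

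CPT1B, the form of the same enzyme known from muscle, was at the edge of detection. Its probe (EMBV3_13710) read 7.51, 7.35, 7.44 and 7.09 in the vitrified pools and 7.19, 7.06, 7.33 and 7.21 in the slow-frozen pools. It was above the negative controls in vitrified replicates 1, 2 and 3 and in 0 of 4 slow-frozen pools, where the raw intensity was 0.833 to 0.96 of the control bound. The fitted difference was 0.15 ± 0.15 (SE, 95% interval -0.17 to 0.48, adjusted p = 1, limma), or 1.11-fold. No lower limit of a fold can be drawn from it. The probe entered the test through its vitrified pools alone, and with a raw intensity of at most 1.3 times the bound in them.

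CPT2, which returns the acyl group to coenzyme A on the matrix side, was well above the controls in all 8 pools. Its probe (EMBV3_08047) read 10.13, 10.39, 9.58 and 10.49 in the vitrified and 9.98, 10.11, 10.69 and 10.30 in the slow-frozen pools. Vitrified replicate 3 was the lowest and slow-frozen replicate 3 the highest of the 8, and these 2 pools carry the same dye. The difference of -0.12 ± 0.22 (SE, 95% interval -0.62 to 0.37, adjusted p = 1, limma) was 0.21 in the Cy5 pools and -0.46 in the Cy3 pools, and turned positive when vitrified replicate 3 (0.13) or slow-frozen replicate 3 (0.02) was left out.

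The acyl-CoA dehydrogenases start each round of shortening, and their names give the chain length they prefer. ACADVL acts on very long chains at the inner membrane. Its brighter probe (EMBV3_03628) read 8.47, 8.24, 8.47 and 8.03 in the vitrified and 8.07, 7.90, 8.25 and 8.50 in the slow-frozen pools, so that replicate 4 was the lowest vitrified and the highest slow-frozen pool. The difference of 0.12 ± 0.17 (SE, 95% interval -0.25 to 0.50, adjusted p = 1, limma) was 0.37 in the Cy5 and -0.12 in the Cy3 pools, and 0.0277 to 0.261 with a pool left out. A second ACADVL probe (EMBV3_13488) was above the negative controls in 2 vitrified pools and 1 slow-frozen pool and was left out of the test. It read 7.00, 7.21, 7.56 and 7.22 in the vitrified and 7.14, 6.89, 7.31 and 7.12 in the slow-frozen pools, and without the filter on dim probes its difference was 0.13 ± 0.14 (SE).

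ACADL, the long-chain dehydrogenase, read 7.86, 7.93, 8.23 and 7.66 in the vitrified and 7.78, 7.69, 7.93 and 7.94 in the slow-frozen pools (EMBV3_26835). Vitrified replicates 3 and 4 held the highest and the lowest value, and the slow-frozen pools lay between them. The difference was 0.09 ± 0.15 (SE, 95% interval -0.25 to 0.43, adjusted p = 1, limma), and it was -0.01 without vitrified replicate 3.

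ACADM, the medium-chain dehydrogenase, was represented by 3 probes, which differed by -0.02, -0.07 and 0.04 between the groups. Its brightest probe (EMBV3_23335) read 10.76, 11.18, 10.91 and 10.99 in the vitrified and 10.90, 11.16, 10.81 and 11.05 in the slow-frozen pools. The group means, 10.96 ± 0.18 and 10.98 ± 0.15 (SD, n = 4), were closer than those of any of the other 9 tested probes, and the difference was -0.02 ± 0.15 (SE, 95% interval -0.35 to 0.31, adjusted p = 1, limma). A second probe (EMBV3_00908) read 8.69, 9.24, 8.91 and 9.15 in the vitrified and 8.95, 9.14, 8.85 and 9.32 in the slow-frozen pools (-0.07 ± 0.17, SE). Within their group both probes were lowest in vitrified replicate 1 and slow-frozen replicate 3, which are the channels of the same file. In both groups their 2 highest pools were replicates 2 and 4. The third (EMBV3_33938), above the controls in 3 vitrified pools and 1 slow-frozen pool, read 7.59, 7.16, 7.36 and 7.30 in the vitrified and 7.37, 7.29, 7.33 and 7.25 in the slow-frozen pools (0.04 ± 0.14, SE).

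Over the 8 pools the 2 ACADM probes above the controls in every pool moved together. Pearson's r between EMBV3_23335 and EMBV3_00908 was 0.886 (exact permutation p = 0.00451, two-sided, also after adjustment over the 3 pairs) and Spearman's rho was 0.857 (exact permutation p = 0.0107). Without the 2 pools farthest from the median r was 0.975, and it was 0.882 to 0.969 under the other normalisations. The dim probe had r = -0.824 and -0.866 with them, but it was above the negative controls in 4 of the 8 pools, and r was -0.49 and -0.575 with plain background subtraction, -0.434 and -0.531 with no background correction and -0.407 and -0.491 without loess, so that no opposite movement is read from it. Groups and dyes hold 4 pools each, too few for a correlation within them. The permutations took the 8 pools as exchangeable, although each deposited file joins 2 of them and loess was run within files. Over all tested probes the fitted correlation of the pools of a file was 0.312, so these exact p-values may be too small.

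**Figure D2:**
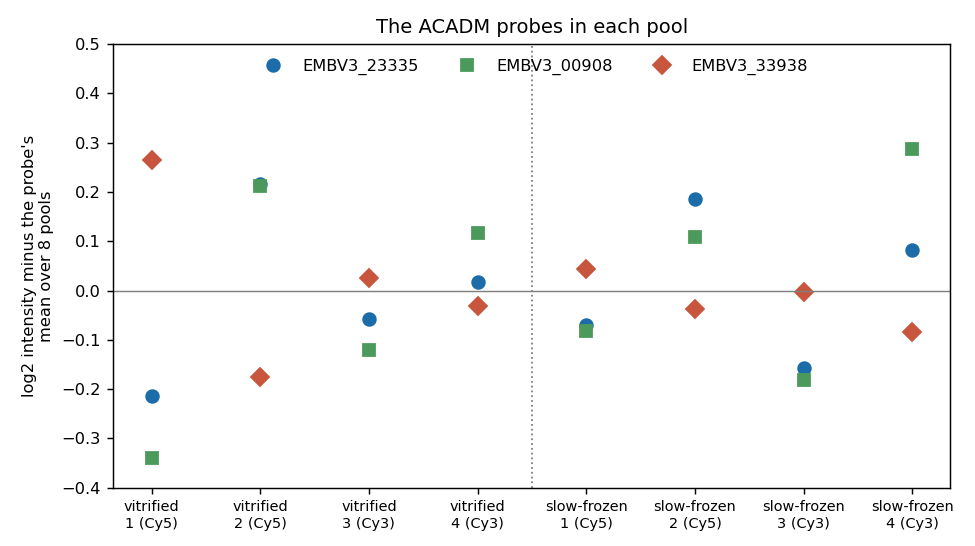
Log2 intensity of each of the 3 ACADM probes minus its own mean over the 8 pools, by pool and dye. EMBV3_23335 and EMBV3_00908 lie on the same side of their means in 8 of 8 pools, and EMBV3_33938, which was above the negative controls in 4 of the 8 pools, lies on the other side in 7 of 8.

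HADHB and HADH act later in each round. HADHB is the thiolase subunit of the trifunctional protein, which carries out the last steps on long chains, and its gene is the direct neighbour of HADHA in the bovine reference annotation (ARS-UCD2.0). Its probe (EMBV3_15340) read 11.83, 12.22, 12.25 and 11.90 in the vitrified and 12.26, 11.59, 11.65 and 12.13 in the slow-frozen pools. Both groups held 2 higher and 2 lower pools, and the highest and lowest of the 8 were slow-frozen. The difference was 0.14 ± 0.19 (SE, 95% interval -0.28 to 0.57, adjusted p = 1, limma), and with a pool left out it ranged from 0.0164 to 0.286.

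HADH, the dehydrogenase for hydroxyacyl groups of short and medium chains, read 10.23, 10.86, 9.82 and 10.76 in the vitrified and 10.08, 10.75, 10.16 and 10.47 in the slow-frozen pools (EMBV3_37609). Replicates 2 and 4 were the higher ones in both groups. The difference was 0.05 ± 0.24 (SE, 95% interval -0.48 to 0.58, adjusted p = 1, limma), and leaving out vitrified replicate 2, vitrified replicate 4 or slow-frozen replicate 1 turned it to -0.09, -0.12 or -0.10. HADH had the highest residual SD of the 10 probes, 0.431, which 90.6% of all tested probes did not reach.

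**Figure D3:**
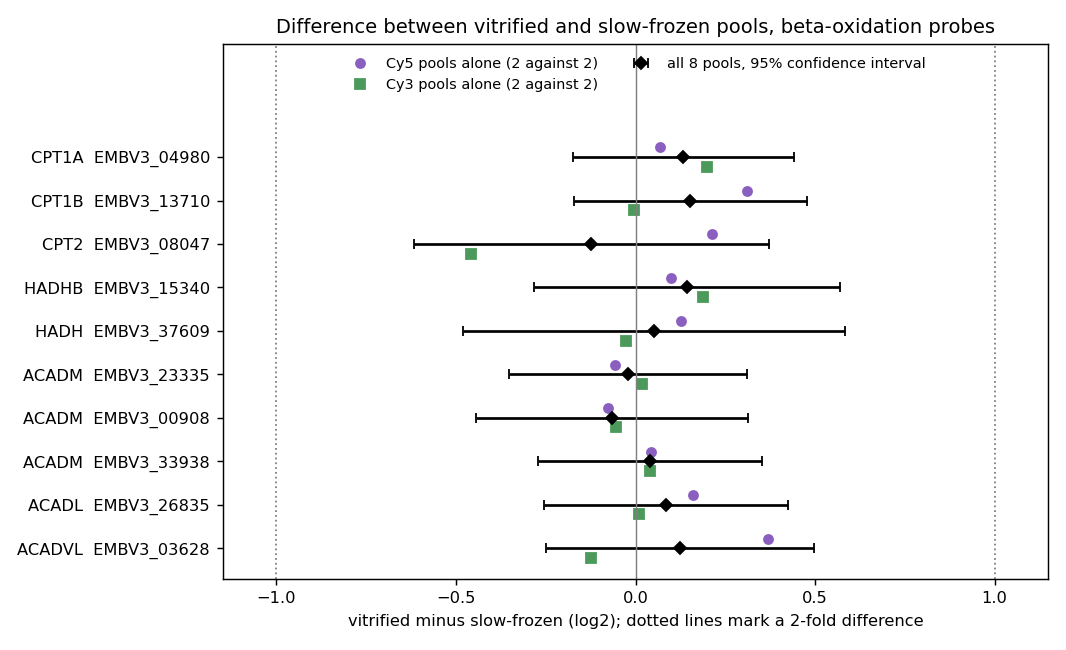
Difference between vitrified and slow-frozen pools for the 10 tested probes on the log2 scale, with 95% confidence intervals from limma (diamonds), and the differences within the Cy5 and the Cy3 pools alone (circles and squares, 2 pools against 2). Every interval includes 0 and lies inside the dotted lines at a 2-fold difference. Those of CPT1A, CPT1B and ACADM EMBV3_33938, which passed the filter through their vitrified pools alone, do not limit a difference in transcript level.

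Of the 7 probes above the controls in all 8 pools, 4 were higher and 3 lower in vitrified pools, with a median difference of 0.05, where the median of all tested probes was 0.01. The median residual SD of the 10 probes was 0.216, against 0.236 for all tested probes. The dye term had an unadjusted p under 0.05 for 0 of the 10 (limma), against 7.28% of all tested probes. The mean deviation of the 10 probes from their own means ranged from -0.06 in slow-frozen replicate 2 to 0.15 in vitrified replicate 2, in which 8 of 10 probes were above their mean.

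The 8 genes gave 28 pairs, each gene by its brightest probe, and no pair was correlated over the pools after adjustment (lowest adjusted p = 0.274, exact permutation). The median r was -0.03, with 14 pairs above 0. Unadjusted, 4 pairs had an exact permutation p under 0.05, which may likewise be too small because pools share files. ACADL and ACADVL had r = 0.771 (exact p = 0.0183, rho = 0.786 with exact p = 0.0279) and HADH and ACADM r = 0.755 (exact p = 0.0369, rho = 0.69 with exact p = 0.0694), and without the 2 farthest pools these were 0.798 and 0.783. The other 2 pairs hold CPT1B, which was above the controls in 3 of 8 pools, and nothing is read from them: r was 0.792 with ACADVL and 0.717 with ACADL. Leaving out slow-frozen replicate 4 brought CPT1B and ACADVL past the adjustment (r = 0.979, adjusted p = 0.0167, exact permutation).

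The rest of the fatty acid oxidation pathway was read from 6 lists with 83 genes, of which 77 had a probe and 67 were tested, each by its brightest probe. Of the 67, 0 passed the adjustment over all probes and 0 the thresholds of the study. An unadjusted p under 0.05 was reached by 2 genes higher in vitrified pools (2.99% of the tested, against 2.94% of all genes on the array) and by 3 lower ones (4.48%, against 2.99%).

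Of these 5, 3 were in the list of uptake, binding and activation (1 of 18 genes higher, 5.56%, and 2 lower, 11.1%) and 2 in the carnitine list (1 of 7 in each direction, 14.3%). FABP3, a fatty acid binding protein known from heart, read 11.44, 11.13, 11.59 and 11.20 in the vitrified and 11.04, 10.70, 10.80 and 10.46 in the slow-frozen pools. Every vitrified pool was above all slow-frozen ones, by a difference of 0.59 ± 0.17 (SE, adjusted p = 0.821, limma). FABP5, the form known from epidermis, read 8.25, 9.37, 9.03 and 9.35 in the vitrified and 9.59, 10.34, 9.83 and 9.08 in the slow-frozen pools. Slow-frozen replicate 4 lay among the vitrified pools, and the difference was -0.71 ± 0.30 (SE, adjusted p = 0.998). ACSL3, an acyl-CoA synthetase at lipid droplets, named after its value was seen because it completes the 5, differed by -0.36 ± 0.16 (SE, adjusted p = 1), and its other probes by -0.24 and -0.35. Of the 17 genes of this list above the controls in at least 3 pools of both groups, 5 were higher and 12 lower (median -0.12).

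In the carnitine list, which leaves out CPT1A, CPT1B and CPT2, 4 genes were higher and 3 lower (median 0.11). ALDH9A1, an aldehyde dehydrogenase of carnitine synthesis, read 11.59, 11.80, 11.65 and 12.21 in the vitrified and 11.03, 11.30, 11.19 and 11.80 in the slow-frozen pools. Replicate 4 was the highest of each group, the groups overlapped only through slow-frozen replicate 4, and the difference was 0.48 ± 0.18 (SE, adjusted p = 0.945, limma). CRAT, which joins short acyl groups to carnitine, read 11.41, 11.14, 11.33 and 11.39 in the vitrified and 11.59, 11.92, 11.73 and 11.43 in the slow-frozen pools. The groups did not overlap, by a margin of slow-frozen replicate 4 over vitrified replicate 1 that was smaller than the spread within either group, and the difference was -0.35 ± 0.15 (SE, adjusted p = 1).

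Of 15 other mitochondrial beta-oxidation enzymes tested, ACAD10 and ACAD11 had passed the filter through 1 group alone. Of the other 13, 12 were higher and 1 lower in vitrified pools, with a median of 0.18. The higher ones include ETFB at 0.000645 and ECI2 at 0.03. All 13 were read in the same pools, so their directions are not independent, and the count was not tested. Of all tested genes, including those that passed through 1 group alone, 52.3% were higher. None of the 15 reached an unadjusted p under 0.05 (limma), although 1 to 4 did under 9 of the 18 alternatives, 4 of them (ACAA2, ECHS1, ECI1 and ETFDH) with the channels of a file as a random block and 1 (ACAA2) with a replicate block. With these blocks 9.02% and 5.1% of all tested probes had such a p, against 4.81% in the values reported. ACAA2, the matrix thiolase, came nearest. Its brightest probe read 10.57, 10.38, 10.37 and 10.34 in the vitrified and 10.10, 9.85, 9.49 and 10.47 in the slow-frozen pools, a difference of 0.44 ± 0.20 (SE, adjusted p = 1). Slow-frozen replicate 4 was inside the vitrified range, and the 2 other ACAA2 probes differed by -0.22 and -0.10, opposite in sign. ECI1 (DCI in the platform table), the isomerase for unsaturated chains, differed by 0.34 ± 0.18 (SE) and its other probe by 0.02.

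The remaining lists gave 0 genes at an unadjusted p under 0.05 (limma), and at most 1 each under any alternative. Of 11 peroxisomal genes ACOX3 and ABCD2 had passed the filter through their vitrified pools alone, and of the other 9, 6 were higher and 3 lower (median 0.07), with PHYH, which hydroxylates branched chains, at 0.24 ± 0.14 (SE) and ABCD3, a peroxisomal acyl-CoA transporter, at 0.27 ± 0.18. Their other probes differed by 0.08 for PHYH and by 0.12 and -0.04 for ABCD3. The ketone body genes tested were BDH2 and OXCT1, at -0.32 ± 0.31 and -0.14 ± 0.15. Of 13 regulators above the controls in at least 3 pools of both groups 4 were higher and 9 lower (median -0.06), with MLYCD, which breaks down the inhibitor of CPT1 malonyl-CoA, at -0.28 ± 0.16 and NRF1, a factor for nuclear genes of mitochondria, at -0.34 ± 0.21. NRF1 was also 0.58 higher in Cy5 than in Cy3 pools (dye term, limma).

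**Figure D4:**
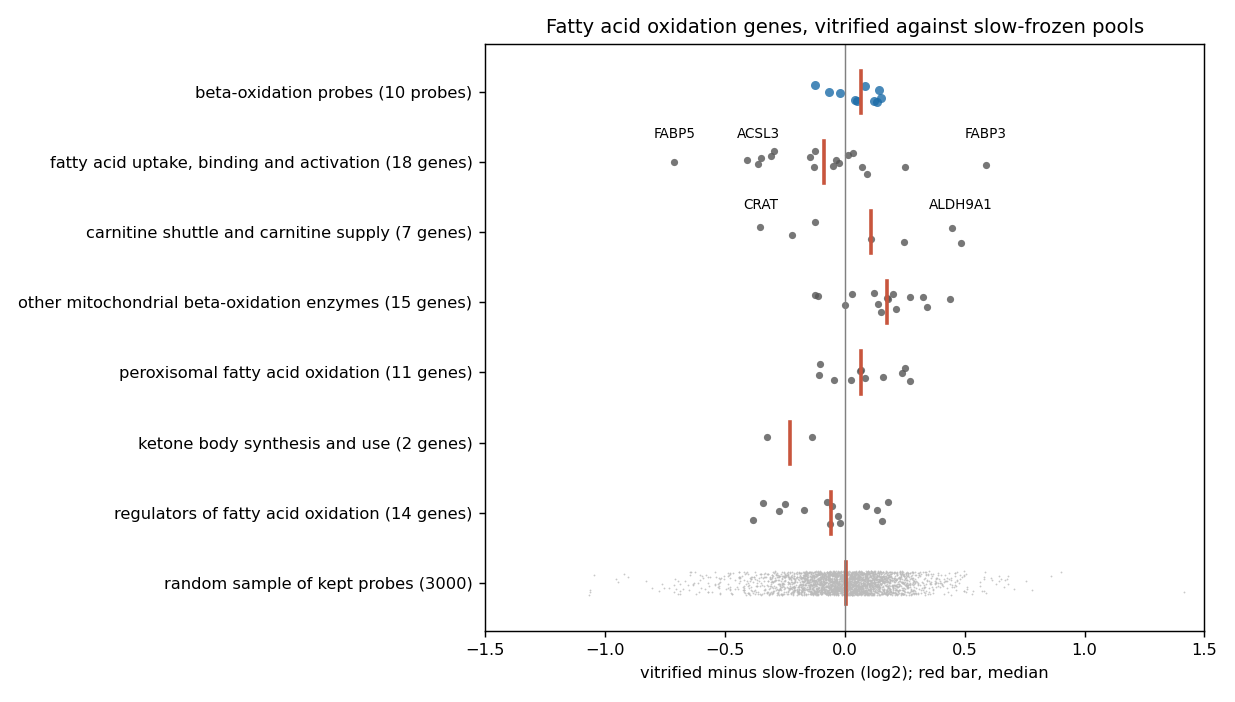
Difference between vitrified and slow-frozen pools (log2) for the 10 beta-oxidation probes, the 67 genes of the 6 pathway lists and a random sample of 3000 tested probes, with red bars at the medians and names at genes with an unadjusted p under 0.05. The beta-oxidation probes lie between -0.12 and 0.15, and the list genes between -0.71 and 0.59.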

How the data were processed

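The authors amplified and labelled the RNA of each pool, hybridised it beside RNA of unfrozen embryos, and deposited files that each join a vitrified and a slow-frozen channel. Intensity was deposited as the median brightness of the spot and of its surroundings, before background subtraction. The value table deposited by the authors holds log2 ratios, which matched log2 of Cy5 over Cy3 after subtraction and loess (r of at least 0.999996). Group, replicate and dye came from the labels. Cy5 marks replicates 1 and 2 of both groups and Cy3 replicates 3 and 4, so number and dye are confounded.

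Intensities were corrected with normexp (offset 50), loess within files with control spots unweighted, and quantile normalisation between channels. Probes were tested if brighter (raw) than the 95th percentile of the pool's 153 negative controls in 3 or more of the 4 pools of either group, and 58 probes marked as ignored were left out. This bound ranged from 81 to 332. The number of arrays limits the precision. The group difference was tested by lmFit and eBayes of limma 3.58.1 (R 4.3.3), two-sided, with dye as a further term, with Benjamini-Hochberg adjustment over 30034 probes. The procedure was tested on simulated data. Correlations used exact permutation tests, which took the pools as exchangeable although files join them in pairs. Symbols came from the platform table, and for the lists 1524 probes took newer symbols from the reference gene table (ARS-UCD2.0).

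The members and lists were chosen with earlier results of these data known. Named were all members and, of each list, the 2 genes with the smallest p. The labels describe separate pools but do not tie replicate numbers to the production cycles of the methods, so p-values measure the spread between these pools. Same-numbered pools are treated as unpaired. Alternatives were other background corrections, normalisations, filters and models, the deposited ratios, and leaving out each pool. A planned correlation of HADHA with HADHB was replaced by all pairs of the measured genes.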

Additional observations from a re-analysis of the deposited data

Results flagged for a closer look

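Of 46 groups of 4 pools examined for a pool far from the others (11 member probes and 12 named pathway genes in each group), 2 held one, where chance gives about 1 in 20 groups, and none was a group of a beta-oxidation probe. PHYH (EMBV3_32485) read 8.16 in slow-frozen replicate 3 and 7.82 to 7.88 in the other slow-frozen pools (log2 intensity). MLYCD (EMBV3_29521) read 6.85 in vitrified replicate 2 and 7.29 to 7.38 in the other vitrified pools.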

How the results depend on the processing

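The differences of the 10 tested beta-oxidation probes were refitted 178 times under the alternatives, and 0 fits reached an unadjusted p under 0.05 (limma, lowest 0.108) or an adjusted one (lowest 0.762). Values ranged from -0.243 to 0.286. The direction changed in 12 fits, all with a pool left out: ACADM EMBV3_23335 to 0.0736, 0.0392 and 0.0203, ACADM EMBV3_00908 to 0.047 and 0.0261, ACADM EMBV3_33938 to -0.0472, HADH to -0.0913, -0.122 and -0.0991, CPT2 to 0.126 and 0.0221, and ACADL to -0.014. The cause was not tested. Left-out pools gave ranges of -0.0982 to 0.0736, -0.174 to 0.047, -0.0472 to 0.128, -0.122 to 0.255, -0.243 to 0.126 and -0.014 to 0.216 for these probes in that order. The other 4 kept their sign but moved by over 1.5 times: 0.064 to 0.19 for CPT1A, 0.0894 to 0.255 for CPT1B, 0.0164 to 0.286 for HADHB and 0.0277 to 0.261 for ACADVL. The end of a confidence interval farthest from 0 lay at 1.45-fold to 1.73-fold, depending on the setting. With the deposited ratios this end (1.53-fold) was that of CPT1A. The CPT1A probe passed the filter through its vitrified pools alone, so its interval does not limit a difference in transcript level. With the filter requiring all 8 pools, CPT1A, CPT1B and EMBV3_33938 had no value.

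The number of list genes with an unadjusted p under 0.05, 5 in the values reported, was 3 with plain subtraction, 3 with median centring, 8 from the deposited ratios, 3 with the filter requiring all 8 pools (50 genes tested), 10 when each file's channel pair formed a random block, and 2 to 7 with a pool left out. The share of all tested probes with such a p (limma) was 4.81% in the values reported. It was 5.16%, 3.23%, 7.39%, 5.77% and 9.02% in those settings in that order, and 2.9% to 5.95% with a pool left out. FABP3 was among them in every setting, and 0 list genes passed the adjustment in any. The number of adjusted gene pairs was 0 to 1 with a pool left out. The 12 named pathway genes, each by its brightest probe, kept their direction in 215 of 215 fits. They were chosen by their p in these same pools, so nothing is read from that count. Same-numbered pools had correlations of 0.163, 0.0872, -0.0314 and 0.0857, and 2 of 4 numbers were best matched by their own. This cannot settle the pairing, as loess within files ties each pool to a pool of another number. The numbers were not taken as pairs because the labels do not tie them to production cycles. With a replicate block 0 member probes were called. In that fit 4 list genes had an unadjusted p under 0.05 (limma), against 5.1% of all tested probes. The median of the 10 member probes was 0.0684 in it. CPT1A, CPT1B and EMBV3_33938, which passed the filter through their vitrified pools alone, are part of that median, so nothing is read from it. The probes of CPT1A and CPT1B and EMBV3_33938 and EMBV3_13488 lie near the negative controls, which limits what they can show.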
